A study of Mus musculus with 8 samples.

Results

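Cbx2, Cbx6, Cbx7 and Cbx8, 4 genes for chromobox proteins of the Polycomb group out of 21883 protein-coding genes, were chosen by name. Each was examined over a window made of its RefSeq span plus 5 kb on either side. Chromatin immunoprecipitation and sequencing had been done on EML_C1 cells, which are mouse blood progenitors of an established line grown with stem cell factor (mSCF, 200 ng/ml, passage 4 to 5, strain C57BL/6 per the labels). The antibodies were to Ezh2, to trimethylated lysine 27 of histone H3 (H3K27me3) and to Runx1, with 2 replicates each, and the labels name no mutation or treatment. For Ezh2 and Runx1 the chromatin was fixed with 2 mM DSG for 60 min and with 1% formaldehyde for 60 min, and the pair shared 1 input library. Chromatin for H3K27me3 was fixed with 1% formaldehyde for 10 min and had an input of its own.

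Polycomb repressive complex 2 (PRC2), whose catalytic subunit is Ezh2, places H3K27me3. Polycomb repressive complex 1 (PRC1) contains a Cbx subunit whose chromodomain can bind this mark, so the Cbx genes encode the readers of what Ezh2 writes. The Cbx proteins compete for a place in the complex. In mouse blood stem cells Cbx7 is known to favour self-renewal, while forced Cbx2 or Cbx8 favours differentiation. Runx1 is a transcription factor needed to form blood stem cells and for T lymphoid development.

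The deposited peak lists held 159007 to 178354 peaks for Ezh2, 178423 to 220455 for H3K27me3 and 64059 to 66153 for Runx1. The lists reached down to a p of about 0.05, so many peaks were weak, and a q of at most 0.01 was met by 14.1% to 20.2%, 1.34% to 6.13% and 60.0% to 69.3% of the peaks of these antibodies. H3K27me3 peaks were called as broad peaks, so their folds cannot be set directly against those of the other antibodies. The labels do not state that the replicates were separate cultures, so the spread between them may be technical. With 2 libraries per antibody no exact permutation test can reach a p of 0.05, and values are given as a mean ± SD (n = 2) without a test.

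Cbx2 and Cbx8 are neighbours on chromosome 11 of mm10, and Cbx6 and Cbx7 lie on chromosome 15. Cbx2 spanned chr11:119023019-119031275 and Cbx8 chr11:119036303-119040913, with 5027 bp between them, so that their windows shared 4973 bp. Cbx6 spanned chr15:79823898-79834333 and Cbx7 chr15:79915804-79971143, 81470 bp apart. Windows measured 18257 bp for Cbx2, 14611 bp for Cbx8, 20436 bp for Cbx6 and 65340 bp for Cbx7, beside a median of 27169 bp over all genes. A longer window can meet more peaks. Other genes reached into these windows. The long noncoding gene Gm35829 overlapped the lower end of Cbx2, Npcd covered the whole of Cbx6 and ended at the same base, and Apobec3, a cytidine deaminase gene, overlapped the lower end of Cbx7. A peak at such a place cannot be assigned to 1 gene.

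All 4 genes had Ezh2 and Runx1 peaks in both replicates, and 3 of them, all but Cbx2, had H3K27me3. Among all protein-coding genes 37.9% had Ezh2, 64.9% had Runx1 and 47.8% had H3K27me3 in this sense, a peak anywhere in the window in both replicates. All 3 antibodies together were found at Cbx8, Cbx6 and Cbx7, beside 20.4% of all genes. Ezh2 and Runx1 without the mark, the state of Cbx2, were found at 1.99% of all genes. When the lists were limited to a q of at most 0.01, Ezh2 was called at 3 members (18.8% of all genes), H3K27me3 at 0 (6.07%) and Runx1 at 4 (59.5%). With a q of at most 1e-05, Ezh2 was called at Cbx8 alone (7.81% of all genes), H3K27me3 at 0 (0.621%) and Runx1 still at all 4 (55.0%). For H3K27me3, 1 peak each at Cbx8, Cbx6 and Cbx7 met a q of 0.01 in replicate 1, and none did in replicate 2.

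**Figure D1:**
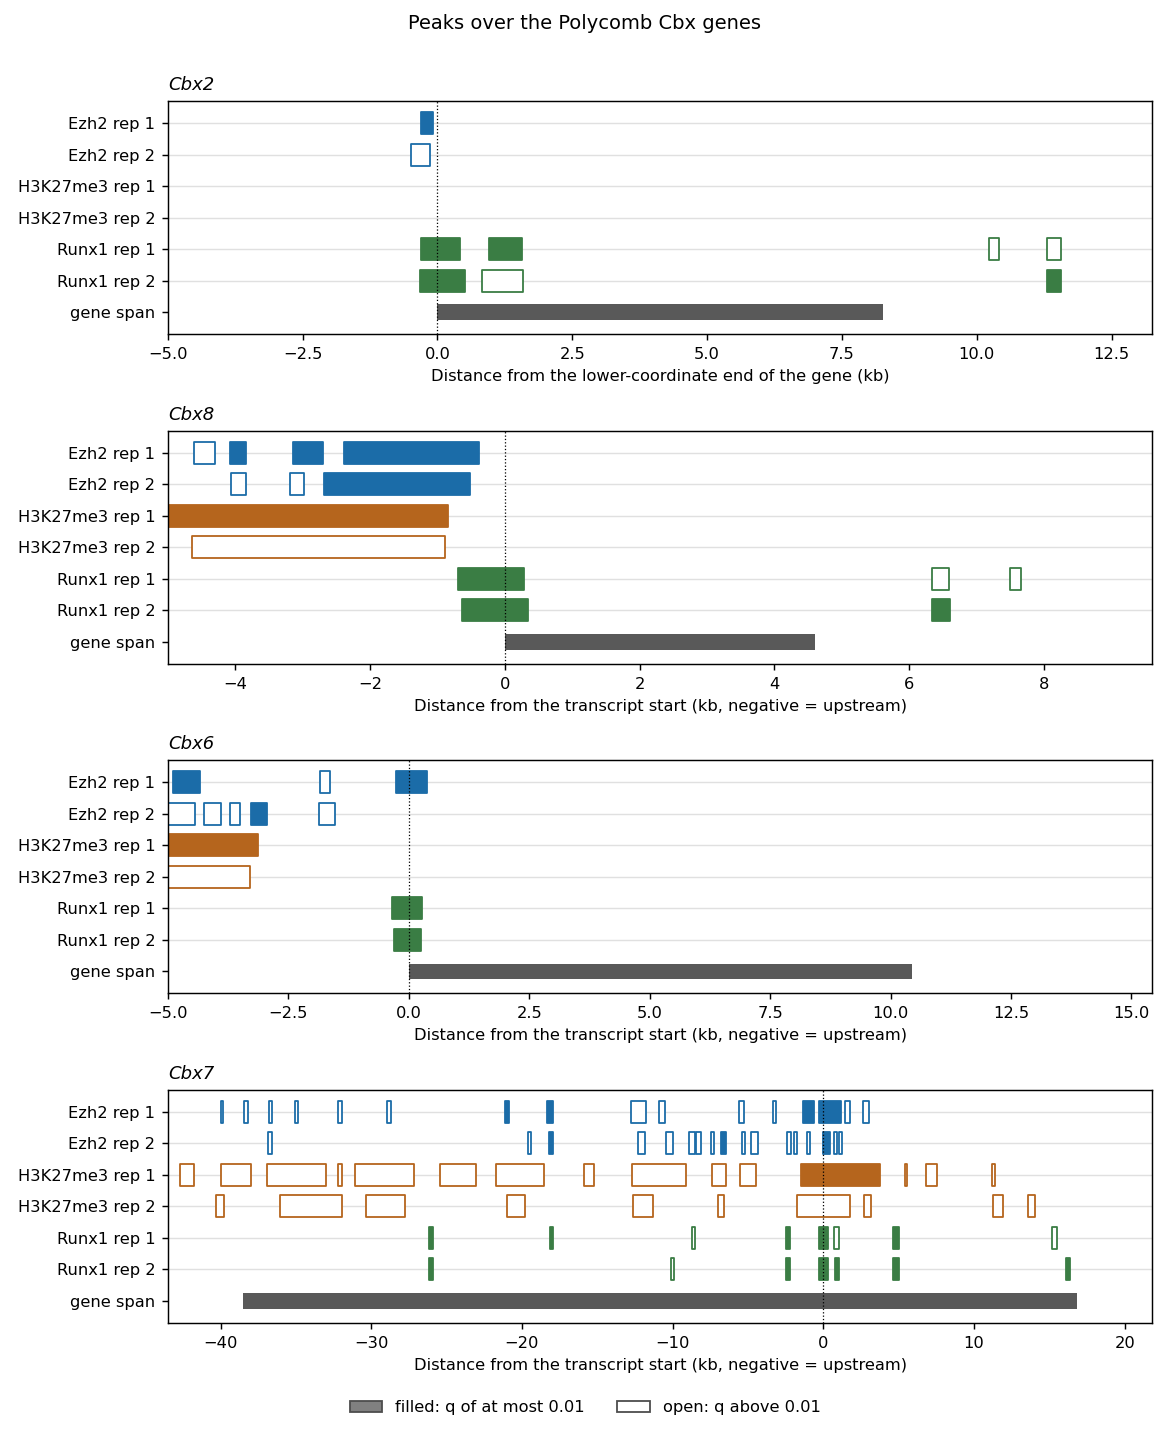
Peaks of each list over the windows of Cbx2, Cbx8, Cbx6 and Cbx7, drawn along the distance in kb from the transcript start (from the lower-coordinate end for Cbx2), with each peak as a box, filled where its q was at most 0.01 and clipped at the window edge. A Runx1 peak lay over the 0 position of each gene in both replicates, while H3K27me3 began 839 and 894 bp upstream at Cbx8 and 3122 and 3288 bp upstream at Cbx6, covered the start at Cbx7 and was missing at Cbx2.

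Runx1 stood at the transcript start of Cbx8, Cbx6 and Cbx7, and at the lower-coordinate end of Cbx2, whose transcript start and strand were not established here. The promoters of 3 members, from 250 bases before the start to 50 after it, were available from RefSeq (GRCm38.p6) and are shown because Runx1 peaks of both replicates covered all 300 bases of each. All are on the minus strand and are written 5′ to 3′. Capitals mark the bases between the Runx1 summits of the replicates, with 10 more on each side. The Cbx8 promoter is chr11:119040864-119041163, that of Cbx6 is chr15:79834284-79834583 and that of Cbx7 is chr15:79932597-79932896.
Cbx8: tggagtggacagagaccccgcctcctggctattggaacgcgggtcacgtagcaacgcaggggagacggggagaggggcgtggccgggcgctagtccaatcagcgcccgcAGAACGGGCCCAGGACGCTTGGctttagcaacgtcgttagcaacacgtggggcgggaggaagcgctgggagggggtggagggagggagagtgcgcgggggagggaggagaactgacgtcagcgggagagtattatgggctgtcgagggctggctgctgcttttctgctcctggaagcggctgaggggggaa
Cbx6: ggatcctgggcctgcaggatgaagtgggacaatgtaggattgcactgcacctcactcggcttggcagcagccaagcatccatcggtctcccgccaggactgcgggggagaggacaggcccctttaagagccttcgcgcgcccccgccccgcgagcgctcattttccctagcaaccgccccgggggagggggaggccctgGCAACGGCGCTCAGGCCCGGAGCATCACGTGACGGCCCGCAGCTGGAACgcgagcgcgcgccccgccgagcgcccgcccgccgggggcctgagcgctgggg
Cbx7: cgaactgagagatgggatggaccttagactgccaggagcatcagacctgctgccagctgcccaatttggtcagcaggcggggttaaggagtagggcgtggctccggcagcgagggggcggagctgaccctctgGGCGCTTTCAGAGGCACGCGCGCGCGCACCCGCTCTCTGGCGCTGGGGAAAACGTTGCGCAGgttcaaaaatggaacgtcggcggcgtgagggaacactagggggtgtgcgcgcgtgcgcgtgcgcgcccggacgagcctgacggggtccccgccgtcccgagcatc

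All 3 promoters were rich in CpG, with 24 CpG dinucleotides in 300 bases at Cbx8, 31 at Cbx6 and 33 at Cbx7, beside a median of 7 over the 32851 promoters of the table. Their GC content was 66.0% at Cbx8, 71.7% at Cbx6 and 67.3% at Cbx7, beside a median of 52.7%. The core RUNX motif TGTGGT and its variant TGCGGT, searched on both strands, were found in none of the 3, capitals included. TGTGGT was present in 16.8% and TGCGGT in 6.45% of all promoters. No match says only that these letters are not in these windows. Of the 3 members, Runx1 covered part of the promoter in both replicates at 3, H3K27me3 at 1 and Ezh2 at 1, which was Cbx7 for both. Over all 17491 genes with a promoter entry the shares were 42.4% for Runx1, 19.4% for H3K27me3 and 9.14% for Ezh2.

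The strongest Runx1 peak of the group lay at Cbx8, a PRC1 subunit gene whose protein is known as a partner in leukaemia driven by MLL fusions in mouse. It had a fold enrichment over background of 18.8 in replicate 1 and 13.6 in replicate 2 (16.2 ± 3.67), with a -log10 q of 580.2 and 380.4. Its summits lay 130 and 131 bp upstream of the start, 1 bp apart, within the capitals of the printed Cbx8 promoter. This peak exceeded the strongest Runx1 peaks of the other members in both replicates.

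At Cbx2, whose loss in mouse transforms vertebrae and disturbs gonad development, the strongest Runx1 peak lay over the lower-coordinate end of the gene. Its fold was 3.54 in replicate 1 and 6.33 in replicate 2 (4.93 ± 1.97), and its summits were 177 bp inside the gene and 28 bp outside it. A weaker Runx1 peak followed inside the gene at 1404 and 977 bp from that end, with folds of 2.64 and 2.30. Another, in the stretch between Cbx2 and Cbx8, had folds of 1.75 and 2.73 and a q of 0.128 and 6.50e-08, and it counts in the windows of both genes.

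At Cbx6, the least studied of the 4, a single Runx1 peak was found in each replicate. Its fold was 4.32 in replicate 1 and 4.92 in replicate 2 (4.62 ± 0.428), with summits 41 and 13 bp upstream of the start. The span of Npcd ends at the base of this start, and the transcript start of Npcd was not looked up. At Cbx7, 8 and 7 Runx1 peaks were listed, and 5 of each touched a peak of the other replicate. The peak at the start had folds of 3.22 and 3.26, with summits 66 and 107 bp upstream. The strongest lay further out, 2337 and 2357 bp upstream of the start, with folds of 6.15 and 5.99 (6.07 ± 0.110). Further Runx1 sites found in both replicates lay 4808 and 4814 bp downstream (folds 3.43 and 3.74), 889 and 905 bp downstream (2.31 and 3.03) and 26048 and 26063 bp upstream (2.99 and 3.14). The summits of these 5 sites differed by 6 to 41 bp between replicates. Each replicate also had a Runx1 peak in the stretch shared with Apobec3, and those did not touch each other.

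Set against the genome, the Runx1 peaks at Cbx2, Cbx6 and Cbx7 were not strong. Their means of 4.93, 4.62 and 6.07 lay below the median of 8.92 over the 14198 genes with a Runx1 call and above the median of 4.43 over all genes, those without a peak counted as 0. Cbx8, at 16.2, lay above both. In covered length the order was another. Runx1 peaks covered 9.90 ± 0.449% of the Cbx2 window and 9.12 ± 0.794% of the Cbx8 window, where the replicates of the genes overlap (9.59% and 10.2% for Cbx2, 9.68% and 8.56% for Cbx8). They covered 3.54 ± 0.476% at Cbx7 and 2.92 ± 0.204% at Cbx6, beside a median of 1.52% over all genes and 3.05% over genes with a Runx1 call. The replicates of Cbx7 (3.88% and 3.21%) lay above those of Cbx6 (3.06% and 2.77%).

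**Figure D2:**
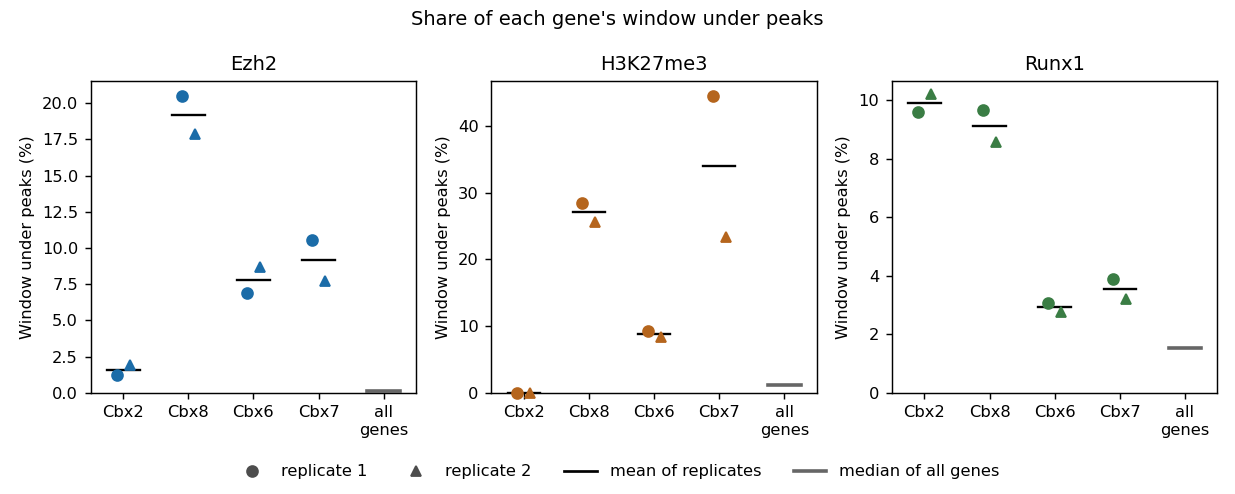
Share of each window under peaks in percent, by antibody, with a point per replicate, a line for the mean of the 2 replicates and, at the right, the median of all protein-coding genes. With a flank of 5 kb Cbx8 had the highest Ezh2 share (19.2%), although without a flank it had none, Cbx8 and Cbx7 overlapped for H3K27me3 (27.1% and 33.9%), and Cbx2 had no H3K27me3 and the joint highest share of Runx1 (9.90%).

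At Cbx8 Ezh2 covered 2996 and 2610 bp, all of it outside the gene span, so that without a flank its share was 0%. Its main peak there was 2001 bp long in replicate 1 and 2178 bp in replicate 2, with folds of 4.90 and 2.32 (3.61 ± 1.82) and a q of 6.57e-30 and 7.04e-06. It began 379 and 509 bp upstream of the start and ran to 2379 and 2686 bp upstream, so that none of the 4 and 3 Ezh2 peaks of the window reached the gene itself. Smaller Ezh2 peaks followed in both replicates at 2941 and 3104 bp (folds 2.66 and 2.30) and at 4018 and 3890 bp upstream (3.21 and 1.85). Replicate 1 was the higher in all of them.

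Cbx7 had the most Ezh2 peaks, 16 in replicate 1 and 17 in replicate 2, and the most Ezh2 in bases, 6905 and 5056 bp in the longest of the 4 windows. Of these peaks 6 and 8 touched a peak of the other replicate. The highest folds were 5.09 in replicate 1 and 3.44 in replicate 2 (4.27 ± 1.17), at different places, 1004 and 6614 bp upstream of the start. At the start itself, Ezh2 peaks of both replicates had summits 198 and 114 bp downstream, with folds of 3.44 and 2.64 and a q of 4.66e-10 and 8.11e-05. A site 18096 and 18060 bp upstream had folds of 3.33 and 2.75. The other sites found in both replicates had a q above 0.01 in at least 1 of them.

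At Cbx6 the replicates matched in part. Ezh2 peaks 4651 and 4586 bp upstream had folds of 3.38 and 3.00 (3.19 ± 0.263) and a q of 6.52e-04 and 0.0101. A weak pair lay 1759 and 1562 bp upstream (folds 2.04 and 1.86). A peak over the start, with a fold of 2.93 and a q of 5.14e-07, was listed in replicate 1 alone, and the only peak with a q of at most 0.01 in replicate 2, 3142 bp upstream with a fold of 3.30, was not in replicate 1. The Ezh2 call of Cbx6 at that q therefore came from different places. At Cbx2 a single small Ezh2 peak lay outside the lower-coordinate end, with summits 170 and 243 bp from it. Its fold was 2.61 in replicate 1 and 1.70 in replicate 2 (2.16 ± 0.646), with a q of 2.54e-05 and 0.430, so it passed a q of 0.01 in replicate 1 alone.

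Ezh2 peaks covered 19.2 ± 1.87% of the window at Cbx8, 9.15 ± 2.00% at Cbx7, 7.79 ± 1.28% at Cbx6 and 1.55 ± 0.480% at Cbx2, beside a median of 0.0932% over all genes and 4.97% over the 8285 genes with an Ezh2 call. Cbx7 (10.6% and 7.74%) and Cbx6 (6.89% and 8.70%) overlapped between replicates, and Cbx8 and Cbx2 stood apart from them in both. By the strongest fold the replicates of Cbx8 (4.90 and 2.32) spread over those of Cbx6 (3.38 and 3.30) and overlapped those of Cbx7 (5.09 and 3.44), which lay above Cbx6. At Cbx7 and Cbx6 the strongest peaks of the 2 replicates lay at different places. At the Cbx7 site with a fold of 5.09 in replicate 1, replicate 2 had 2.13. The means of 4.27 at Cbx7, 3.61 at Cbx8 and 3.34 at Cbx6 lay above the median of 3.18 over genes with an Ezh2 call, and that of Cbx2, 2.16, lay below it. Over all genes, 93.1% had a lower value than Cbx7, 87.5% than Cbx8 and 83.8% than Cbx6.

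**Figure D3:**
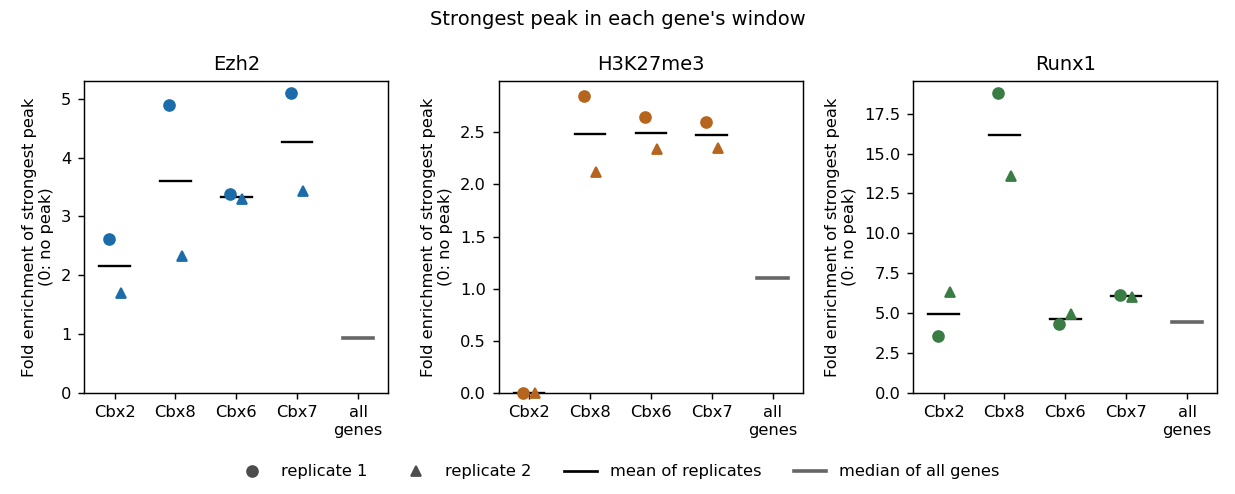
Fold enrichment of the strongest peak in each window, by antibody, with a point per replicate, a line for the mean and the median of all protein-coding genes at the right, where 0 stands for no peak. Runx1 at Cbx8 (18.8 and 13.6) lay above the other members, while H3K27me3 folds of Cbx8, Cbx6 and Cbx7 were alike (means of 2.49, 2.50 and 2.48).

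H3K27me3 lay beside Cbx8 and Cbx6 rather than on them. At Cbx8 a single broad peak began 839 bp upstream of the start in replicate 1 and 894 bp upstream in replicate 2, and ran away from the gene for 11164 bp and 3747 bp. In replicate 2, 2 peaks covered 89.2% of the longer block of replicate 1. The folds were 2.85 and 2.12 (2.49 ± 0.515), with a q of 1.30e-04 and 0.119. At Cbx6 the mark began further out, 3122 and 3288 bp upstream, in peaks of 4957 and 5115 bp with folds of 2.65 and 2.34 (2.50 ± 0.220) and a q of 0.00370 and 0.123. At both genes the edge nearest the start lay at almost the same place in both replicates, although the q of replicate 2 was weak. At Cbx2 no H3K27me3 peak was listed in the window, and the nearest to its lower-coordinate end was the block upstream of Cbx8, 18733 and 18788 bp away.

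At Cbx7 the mark covered the start and much of the region around it. In replicate 1 there were 15 broad peaks and in replicate 2 there were 10, and 9 of each touched the other replicate. The peak over the start ran from 1456 bp upstream in replicate 1 and 1767 bp upstream in replicate 2 into the gene, with folds of 2.46 and 2.13 and a q of 0.00299 and 0.0987. The gene table extends Cbx7 by 38.5 kb beyond the start of the promoter table. From the start to the higher end of the window the mark covered 55.6% in replicate 1 and 27.5% in replicate 2, and from the start to the lower end 22.3% and 15.2%. Runx1 shares ran the other way, with 2.82% and 2.16% towards the higher end and 5.99% and 5.28% towards the lower end. The stretches differ in length, 43497 bp towards the higher end and 21843 bp towards the lower. Runx1 peaks in them were similar in number, 5 and 4 against 4 and 4, with the peak over the start in both. Ezh2 covered 11.6% and 9.61% towards the higher end and 8.47% and 4.02% towards the lower end. Within 5 kb of the start Ezh2 covered 30.7% and 20.1%, H3K27me3 57.5% and 40.0% and Runx1 15.3% and 14.6%. Each of the 3 was above its shares of both whole stretches. With a window ending 5 kb past that start, H3K27me3 covered 25.5% and 18.9%, in place of 44.5% and 23.4%.

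H3K27me3 covered 33.9 ± 14.9% of the window at Cbx7, 27.1 ± 2.01% at Cbx8 and 8.79 ± 0.574% at Cbx6, beside a median of 1.15% over all genes and 18.5% over the 10453 genes with an H3K27me3 call. The values of Cbx8 (28.5% and 25.6%) fell within the wide spread of Cbx7. Those of Cbx6 (9.19% and 8.38%) lay below both. With a flank of 10 kb in place of 5 kb, which takes in more of the block upstream of Cbx6, the mark covered 30.8% and 29.3% of the Cbx6 window.

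Ezh2 met the mark at Cbx8, Cbx6 and Cbx7, to a varying extent, and Runx1 lay mostly outside it. Each Ezh2 peak of the Cbx8 window touched H3K27me3 of both replicates, and 84.6% and 85.2% of its Ezh2 bases were marked in the same-numbered lists. At Cbx6 the shares were 40.1% and 63.6%, and at Cbx7 they were 87.9% in replicate 1 and 35.8% in replicate 2, whose H3K27me3 covered less. No Runx1 peak of Cbx2, Cbx8 or Cbx6 touched an H3K27me3 peak in either replicate. At Cbx7 the Runx1 peaks at the start and 889 and 905 bp downstream of it did, and 36.9% and 40.7% of Runx1 bases there were marked, while the strongest Runx1 peak of Cbx7, further upstream, touched no mark. The end of the Runx1 peak at Cbx8, 697 and 638 bp upstream of the start, lay short of the mark's edge at 839 and 894 bp, while it overlapped Ezh2 by 319 and 130 bp.

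At Cbx8 and Cbx6 Runx1 lay over the promoter, with the mark nearby but not on it. Runx1 over a promoter with H3K27me3 somewhere in the window was found at 3 of 3 members with a promoter entry, and at 10.8% of all genes with one. In 2 of these 3 members, all but Cbx7, and in 82.2% of those genes, no promoter carried the mark in both replicates. The mark lay over a promoter in both replicates at 19.4% of all genes with an entry. That share also counts genes without any mark in the window, so it cannot be set against the 82.2%. Whether the mark is missing from promoters more often where Runx1 lies was not tested. Ezh2 and Runx1 also met at Cbx2, where 100% of the Ezh2 bases in replicate 1 and 53.9% in replicate 2 lay under Runx1 peaks, outside any mark. They share their fixation and their input library, and the part of this in their overlap was not tested.

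The other genes of the Polycomb machinery were counted in the same way, beside 64.9% of all genes with Runx1, 37.9% with Ezh2 and 47.8% with H3K27me3. Of 19 other PRC1 genes, 18 had Runx1, 7 had Ezh2 and 6 had H3K27me3. Of 11 PRC2 genes, all 11 had Runx1, 3 had Ezh2 and 2 had H3K27me3. The chromobox genes of the HP1 class, Cbx1, Cbx3 and Cbx5, whose proteins read the heterochromatin mark H3K9me3, had Runx1 at 3 of 3 and neither Ezh2 nor H3K27me3 in any replicate. The Ezh2 count of the other PRC1 genes is close to the share of all genes, and no test of these counts was run. The median share of the window under Ezh2 was 8.47% over the Polycomb Cbx genes and 0.0757% over the other PRC1 genes. It was 0% over the PRC2 and HP1 class genes. Under H3K27me3 the medians were 17.9%, 0%, 0% and 0%, in the same order. Among the Polycomb Cbx genes the shares ran from 1.55% to 19.2% for Ezh2 and from 0% to 33.9% for H3K27me3. High shares were not particular to them. Ezh2 covered a mean of 17.1% at Bmi1 and 13.6% at Phf19, and H3K27me3 covered 51.1% at Phf19. The remaining genes of these other lists had lower shares.

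**Figure D4:**
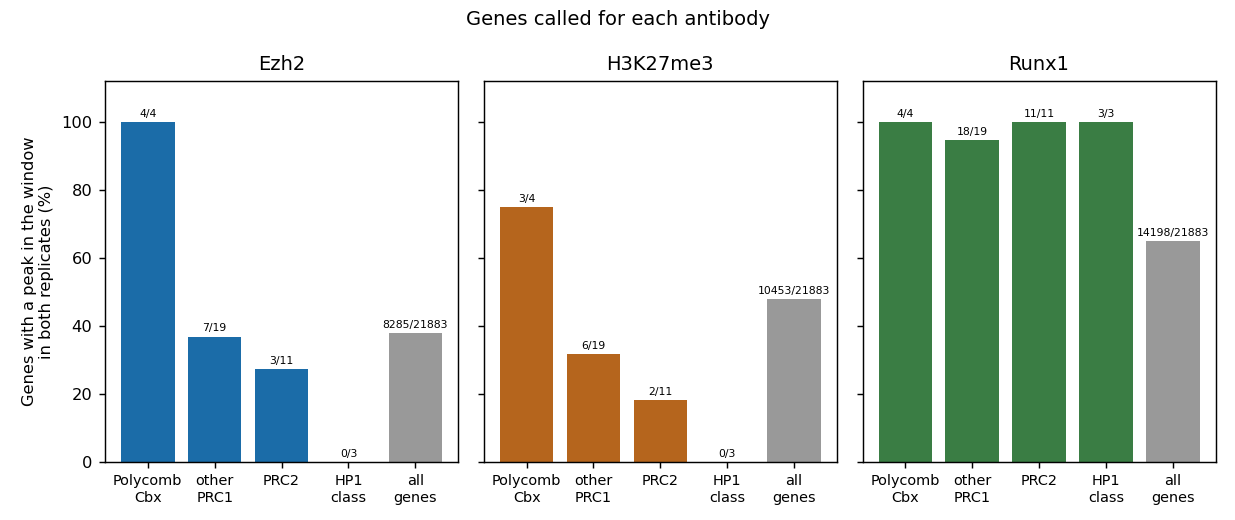
Percent of genes with a peak in the window in both replicates, by antibody, for the Polycomb Cbx genes, the other PRC1 genes, the PRC2 genes, the HP1 class chromobox genes and all protein-coding genes, with counts above the bars. Ezh2 was present in 4 of 4 Polycomb Cbx genes, 7 of 19 other PRC1 genes, 3 of 11 PRC2 genes and 0 of 3 HP1 class genes, beside 37.9% of all genes.

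The Ezh2 folds of the Polycomb Cbx genes, up to 4.27 ± 1.17 at Cbx7, lay below the strongest of the other PRC1 genes, 83.9 ± 9.17 at Bmi1, a ring finger subunit gene, and 8.51 ± 1.08 at Bcorl1, a corepressor gene. Neighbours of the comparison genes were not looked up, so a peak in such a window may belong to another gene. The strongest H3K27me3 folds among the other PRC1 genes were 3.51 ± 0.922 at Bmi1 and 2.56 ± 0.460 at Phc3, a polyhomeotic subunit gene. The strongest Runx1 folds were 118 ± 12.9 at Pcgf5 and 97.3 ± 17.1 at Pcgf3, both ring finger genes of variant PRC1. Among the PRC2 genes, Phf19, whose protein is an accessory subunit, had Ezh2 at 6.87 ± 0.758 and H3K27me3 at 2.74 ± 0.230, and Jarid2, another accessory subunit gene, had Ezh2 at 5.89 ± 1.64. Aebp2 had H3K27me3 at 2.22 ± 0.0375. Runx1 was highest at Phf1 (27.8 ± 0.963) and Rbbp7 (19.8 ± 4.08). The Runx1 fold of Cbx8, 16.2 ± 3.67, was within its own spread of that of Cbx5 in the HP1 class, 16.5 ± 0.238, and that of Cbx1 was 8.11 ± 0.387.

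The genes most like each member were found by the distance between their 6 covered shares, 1 per list, as log2(percent + 1). Nearest to Cbx2 were Rabggta (distance 0.40), Thap1 (0.50) and Mical1 (0.56), which likewise had no H3K27me3 peak and a little Ezh2. Nearest to Cbx8 were Yif1a (0.33), Ache (0.71) and Impdh1 (0.73). Yif1a had Ezh2 over 22.0% and 18.9%, H3K27me3 over 29.5% and 25.03% and Runx1 over 10.4% and 10.6% of its window. Nearest to Cbx6 were Spdya (0.40), Gpatch4 (0.51) and Cdc42bpb (0.58), and nearest to Cbx7 were Krt222 (0.38), Ube2l6 (0.38) and Spsb1 (0.39). Among the members themselves the distances ran from 2.26 between Cbx8 and Cbx7 to 8.03 between Cbx2 and Cbx8, the genes that are neighbours on chromosome 11.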

How the data were processed

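ChIP-seq peak lists of 2 replicates for each of 3 antibodies were used, and the 2 input libraries were not analysed here. Per the submitters' processing notes, the tools were MACS2 2.0.10, Bowtie2 2.2.1, SAMtools and Picard and the build was mm10, with no roles or parameters stated. The authors deposited 1 list per library, so replicates were not pooled. The deposited fold enrichment is a linear ratio for each peak, and the deposited p-value and q-value are on the -log10 scale. The deposited score was not used. No read totals were used, so the depth is unknown.

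Genes came from RefSeq on GRCm38.p6, whose chromosome coordinates are those of mm10, and coordinates count from 1. A gene was called where a peak overlapped its window by at least 1 bp in both replicates, a rule applied to all 21883 protein-coding genes. Transcript starts came from the RefSeq promoter table, which held 3 of the 4 members. Named genes were the 4 members, genes overlapping their windows, up to 2 genes per list and antibody with the highest mean fold, and the 3 genes nearest to each member. Members, lists and rules were chosen with earlier results of these data known. Alternatives changed the q cutoff, the flank, the overlap, the number of peaks and the replicates. Counting was tested on simulated peaks. Python 3.11.15, numpy 2.4.6, pandas 2.3.3 and matplotlib 3.10.9 were used.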

Additional observations from a re-analysis of the deposited data

How the results depend on the processing

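Counts of members called are followed by the share of all genes called in the same way. Runx1 was called at all 4 genes under 9 of the 10 alternatives (55.0% to 69.8% of all genes), and at 1, Cbx8, with the 10000 strongest peaks of each list (33.1%). Ezh2 calls, 4 as reported, numbered 1 with a q of at most 1e-05 (Cbx8, 7.81%) and 1 without a flank (Cbx7, 29.5%). Otherwise they numbered 3 (12.0% to 31.4%) or 4 (30.6% to 46.6%). H3K27me3 calls, 3 as reported, numbered 0 at a q of at most 0.01 (6.07%), 0 at 1e-05 (0.621%), 0 with the 10000 strongest peaks (12.8%), 1 without a flank (37.9%) and 1 where at least 50% of the peak had to lie in the window (45.5%). They numbered 2 with a flank of 1 kb (39.2%) and 3 otherwise (45.3% to 57.2%). Leaving out replicate 1 or replicate 2 left the counts at 4, 3 and 4 for Ezh2, H3K27me3 and Runx1. A single replicate is easier to meet, and the shares of all genes were then 42.5% and 46.6%, 50.2% and 56.8%, and 68.4% and 69.8%. Shares of windows moved by more than 1 SD in 10 cases at a q of at most 0.01, 10 at 1e-05, 9 without a flank and 8 with a flank of 10 kb. With 2 replicates a single one always lies within 1 SD of their mean, so leaving one out does not bear on the stability of the shares. The window of Cbx7 ending 5 kb past its promoter-table start was chosen after seeing the data. With it Runx1 covered 6.60% in place of 3.54%. No paired analysis was possible because no test was fitted to the calls and shares.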
